A study of Mus musculus with 30 samples.

Results

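Cadherins, immunoglobulin-type neural cell adhesion molecules and integrins were followed through the postnatal hippocampus of mice with 1 or 2 working copies of Nf1, the gene of neurofibromin. A member was any non-control probe set with 1 gene symbol that began with Cdh, Pcdh, Ncam, Cntn, Nrxn, Nlgn, Cadm, Itga or Itgb directly followed by a number, or that was L1cam, Chl1, Nrcam, Nfasc or Thy1. The rule found 62 probe sets of 40 genes among 12422 non-control probe sets. A mean intensity of 31 or more over all arrays kept 34 probe sets of 25 genes, and all 34 also passed the filter on dim signals used for testing. The 28 sets below that level, among them all 3 sets of the protocadherins Pcdh7 and Pcdh12, are not described further. Just above the limit lay Cdh6 (35.5) and Itga6 (39.5), and just below it Cdh9 (30.6), Itgb2l (29.6) and Cdh15 (28.3). No probe set of a neurexin, neuroligin or neurofascin gene was among the members. Itgb1bp1, a cytoplasmic protein that binds the tail of the integrin beta-1 subunit, met the rule by its prefix although it is no adhesion molecule itself.

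Cadherins join neighbouring cells by binding cadherins of the same or a related kind in the presence of calcium, and their tails are tied to actin by catenins. Adhesion molecules with immunoglobulin domains, such as the L1 and NCAM families, act without calcium and steer the growth, bundling and branching of axons. Integrins are paired alpha and beta subunits that hold cells to the extracellular matrix. In the hippocampus these molecules are known for guiding mossy fibres and other axons, and for forming and stabilising synapses.

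RNA came from 30 pools of hippocampus, each from 2 male pups of 1 genotype, born to C57BL/6 animals crossed with Nf1 heterozygous animals. At P10 (postnatal day 10) there were 3 wild-type and 4 heterozygous pools, at P15 4 of each, and at P18, P20 and P28 2 of each. At P32 there were 2 wild-type pools and 1 heterozygous pool. Every cell of a heterozygous pup carried the Nf1 allele, so no cell type was singled out, and wild-type pups of the same cross were the controls. The values are the authors' scaled intensities from Affymetrix MG-U74Av2 arrays, and a change is a difference of log2 intensities. Each probe set has its own response to its RNA, so values are compared between libraries and not between genes.

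The 2 heterozygous P18 libraries were the least alike of any pair within a group (r = 0.930 over probe sets). In the one named 1b the log2 ratio of the 3' to the 5' Gapdh control sets, a sign of RNA degradation, was 0.48, the highest of 30 (the others ran from -0.33 to 0.17). Of 11 listed marker genes of hippocampal principal neurons 10 were measured. None of the 10 was at the floor of 1 in any pool, though Camk2a went down to 8.67. In whole tissue, fewer cells of a type and less RNA per cell cannot be told apart.

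The L1 family holds both the largest fall and a member that was not called, so the start regions of its 3 genes are shown first. They are RefSeq entries on GRCm38.p6, each 250 bases before to 50 after the start. Capitals mark every match, on either strand, to the GC box motif GGGCGG, the core promoter motif TATAAA, the E-box motif CACCTG of Snail and Zeb factors, or the cyclic AMP response motif TGACGTCA, and overlapping matches count separately.
L1cam, chrX:73880785-73881084, minus strand, the more upstream of 2 entries: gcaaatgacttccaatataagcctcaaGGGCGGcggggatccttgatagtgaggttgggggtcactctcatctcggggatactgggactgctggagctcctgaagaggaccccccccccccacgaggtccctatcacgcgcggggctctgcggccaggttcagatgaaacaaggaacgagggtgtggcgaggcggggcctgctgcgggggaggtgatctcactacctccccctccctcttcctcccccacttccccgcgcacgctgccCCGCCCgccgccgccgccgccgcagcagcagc
Chl1, chr6:103510626-103510925, plus strand: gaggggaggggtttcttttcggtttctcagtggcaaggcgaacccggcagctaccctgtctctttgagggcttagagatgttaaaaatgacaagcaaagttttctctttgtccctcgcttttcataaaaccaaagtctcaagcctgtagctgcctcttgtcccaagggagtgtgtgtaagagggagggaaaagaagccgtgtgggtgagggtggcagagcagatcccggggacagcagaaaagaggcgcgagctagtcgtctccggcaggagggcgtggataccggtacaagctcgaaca
Nrcam, chr12:44328635-44328934, plus strand: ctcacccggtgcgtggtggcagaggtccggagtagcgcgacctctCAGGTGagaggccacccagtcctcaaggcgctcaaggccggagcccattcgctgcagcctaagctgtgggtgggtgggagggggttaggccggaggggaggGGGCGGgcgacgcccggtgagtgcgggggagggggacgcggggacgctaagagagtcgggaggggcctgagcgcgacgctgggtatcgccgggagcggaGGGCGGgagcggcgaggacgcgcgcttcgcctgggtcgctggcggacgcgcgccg
The L1cam window is 67.0% G and C with 22 CpG and 2 GC boxes, and the Nrcam window 74.0% with 37 CpG, 2 GC boxes and 1 E-box. The Chl1 window is 53.7% G and C with 13 CpG and holds none of these motifs. Entries were matched for 13 of the 25 genes (17 entries). Of these 17, 10 held a GC box, 3 the E-box, 1 the core promoter motif and 0 the cyclic AMP response motif, against 35.7%, 20.2%, 13.6% and 1.79% of all 32851 entries. A match is a description of letters and was not tested as a site.

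From P10 to P28 and P32 L1cam fell most, Ncam1, Chl1, Cadm1 and several cadherins fell less, and Thy1 rose, while Nrcam, Ncam2 and Cntn1 were not called. Of the 34 probe sets, limma called 15 at an adjusted p below 0.05, 2 higher and 13 lower. This 44.1% compares with 53.7% of all 7453 probe sets tested (24.7% higher, 29.0% lower). The share called was thus no higher than among all probe sets, and most of the calls lay on the lower side. The median change of the 34 was -0.19 on the log2 scale against -0.06 over all. By the brightest set of each gene, 12 of 25 genes were called, 2 higher and 10 lower.

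**Figure D1:**
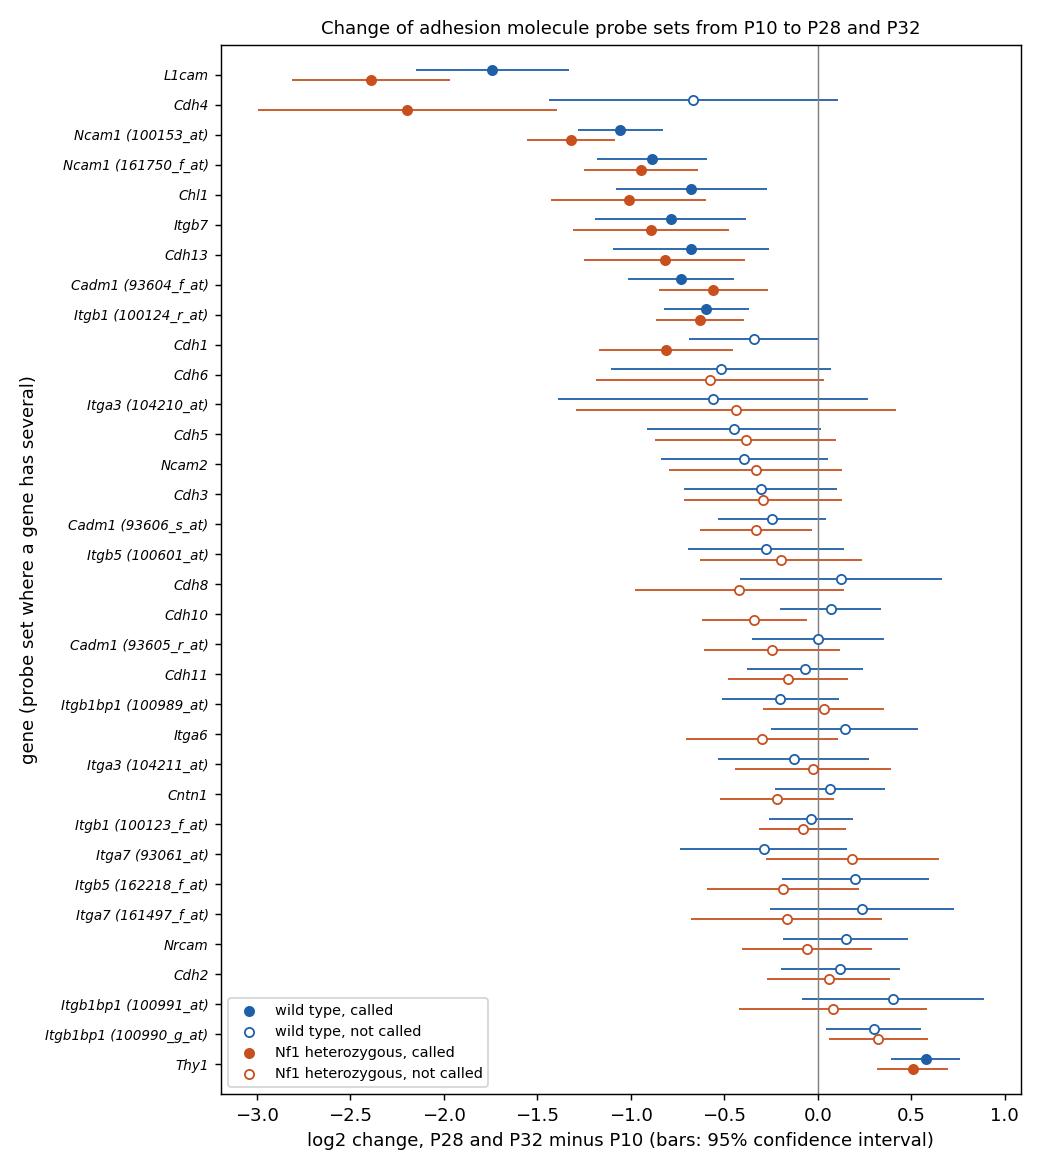
Log2 change of each of the 34 probe sets from P10 to P28 and P32, in wild type (blue) and Nf1 heterozygotes (orange), with 95% confidence intervals; filled points were called by limma within that genotype. L1cam lies farthest to the left in both genotypes and Thy1 farthest to the right among the called sets.

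L1cam, which bundles and guides growing axons, fell most. Its intensity was 98.0, 105 and 95.7 in the wild-type P10 pools and 121, 137, 112 and 151 in the heterozygous ones. At P28 it was 30.9 and 32.6 in wild type and 31.7 and 27.6 in heterozygotes, and at P32 27.1 and 28.7 in wild type and 20.6 in the sole heterozygous pool. Every P28 and P32 pool lay far below every P10 pool, and within P10 the heterozygous pools lay above the wild-type ones (0.38, SE 0.20, not called with a limma adjusted p of 0.844). The span was -2.06 on the log2 scale (SE 0.14), a 4.18-fold fall (limma adjusted p = 3.15e-11), with -1.74 in wild type and -2.39 in heterozygotes. On the scale of log2(value + 32), where dim sets change less, the fall was -1.30 and still called.

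Ncam1, the founding neural cell adhesion molecule and the main carrier of polysialic acid, went the same way. At P10 it read 1907, 1917 and 2092 in wild type and 2297, 2280.2, 2317 and 2042 in heterozygotes. In the 7 pools of P28 and P32 it ran from 796 to 1048 with a median of 903. These ranges did not overlap. The span was -1.19 (SE 0.08, limma adjusted p = 2.45e-11), a 2.28-fold fall. Its second probe set, one that can read several related transcripts, fell by 0.92 and did not overlap either. Ncam2, a relative known from olfactory axons, had a span of -0.36 that missed the threshold (limma adjusted p = 0.0529).

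Chl1, the close homolog of L1 on axons and dendrites, was lower after P10 in every pool. It was 499, 393 and 470.3 in wild-type and 449.7, 483, 524 and 479 in heterozygous P10 pools, and 208 to 345 (median 257) in the oldest 7. The ranges did not overlap, and the span was -0.84 (SE 0.14, limma adjusted p = 2.16e-05). Nrcam, the L1 relative of axon initial segments and nodes, ran from 284 to 548 over all 30 pools and stood at 0.05 (95% confidence interval -0.19 to 0.29). The interval holds neither the value of Chl1 nor that of L1cam.

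Thy1, a small lipid-anchored immunoglobulin-type protein on the surface of maturing axons, was 1 of the 2 that rose. P10 pools lay between 1819.8 and 2248 (median 1977) and those of P28 and P32 between 2786 and 2999 (median 2854), with no overlap. Thy1 rose 1.46-fold, by 0.54 (SE 0.06, limma adjusted p = 1.97e-07). The other was the brightest set of Itgb1bp1, which rose by 0.31 (SE 0.09, limma adjusted p = 0.00521), from 85.3 to 103 at P10 to 105 to 140.0 later. Its other 2 sets stood at -0.08 and 0.24 and were not called, so the gene has no single direction here.

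Cadm1, a synaptic adhesion molecule of the nectin-like family, had 3 described sets. The brightest, like the second Ncam1 set, is one that can read several related transcripts. It ran from 2351 to 3018 (median 2718) at P10 and from 1431 to 1996 (median 1655) at P28 and P32, without overlap. It fell by 0.65 (SE 0.10, limma adjusted p = 7.07e-06). The second fell by 0.29 (limma adjusted p = 0.0185), a call lost without the wild-type P10 pool 2a (-0.24) or the wild-type P28 pool 1a (-0.24), and the third stood at -0.12. Cntn1, a lipid-anchored contactin of axons and paranodes, stood at -0.08 (95% confidence interval -0.29 to 0.14).

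Among the classical cadherins, 2 of 4 sets fell. Cdh4, or R-cadherin, stood at -1.43 (SE 0.27, limma adjusted p = 9.75e-05), but its P10 pools (25.2 to 108) and older pools (13.5 to 60) overlapped, and with log2(value + 32) it was -0.77. Cdh1, or E-cadherin, best known from epithelia, fell by 0.58 (limma adjusted p = 0.000319), from a median of 122 at P10 to 75.3 in the oldest pools. Cdh2, or N-cadherin, the main classical cadherin of synapses, stood at 0.09 (95% confidence interval -0.14 to 0.32). Cdh3, or P-cadherin, stood at -0.30 (limma adjusted p = 0.0783).

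Of the 6 sets of type II and other cadherins, 3 fell and none rose. Cdh13, or T-cadherin, which is held by a lipid anchor and lacks a tail inside the cell, ran from 190.3 to 255 (median 229) at P10 and from 107 to 159 (median 125) in the oldest pools, without overlap. It fell by 0.75 (SE 0.15, limma adjusted p = 0.000139). Cdh6 (-0.55, limma adjusted p = 0.0283) and the endothelial Cdh5, or VE-cadherin (-0.42, limma adjusted p = 0.0346), were called near the threshold. Cdh5 lost the call under 12 alternatives, with -0.26 once the title number was a term and -0.33 without the heterozygous P32 pool. Cdh6 lost it under 7, with -0.37 after quantile normalization. The type II cadherins Cdh8 (-0.15), Cdh10 (-0.13) and Cdh11 (-0.11) were not called.

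No integrin alpha subunit passed the test. The laminin receptors Itga3 (-0.08, second set -0.50), Itga6 (-0.08) and Itga7 (-0.05, second set 0.04) were 5 sets in all. Of the 5 beta subunit sets 2 fell. Itgb7, which pairs with alpha subunits of leukocytes, went from 64.6 to 102 (median 93.2) at P10 to 39.3 to 69.2 (median 53.5) in the oldest pools, a fall of 0.84 (SE 0.14, limma adjusted p = 2.32e-05). Itgb1, the common partner of the laminin receptors, gave 2 answers. Its brightest set, which can read several related transcripts, stood at -0.06 (95% confidence interval -0.22 to 0.10). Its dimmer set, built with relaxed selection rules, fell by 0.61 (SE 0.08, limma adjusted p = 7.1e-07), from 226 to 289 at P10 to 152 to 194 later. Itgb5, which pairs with the alpha V subunit, stood at -0.24 and 0.01.

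All P28 and P32 pools lay below all P10 pools for 7 of the 34 sets (Chl1, L1cam, both Ncam1 sets, 1 set each of Itgb1 and Cadm1, and Cdh13), against 13.3% of all probe sets tested. They lay above them for 2 (Thy1 and 1 Itgb1bp1 set), against 13.6%.

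**Figure D2:**
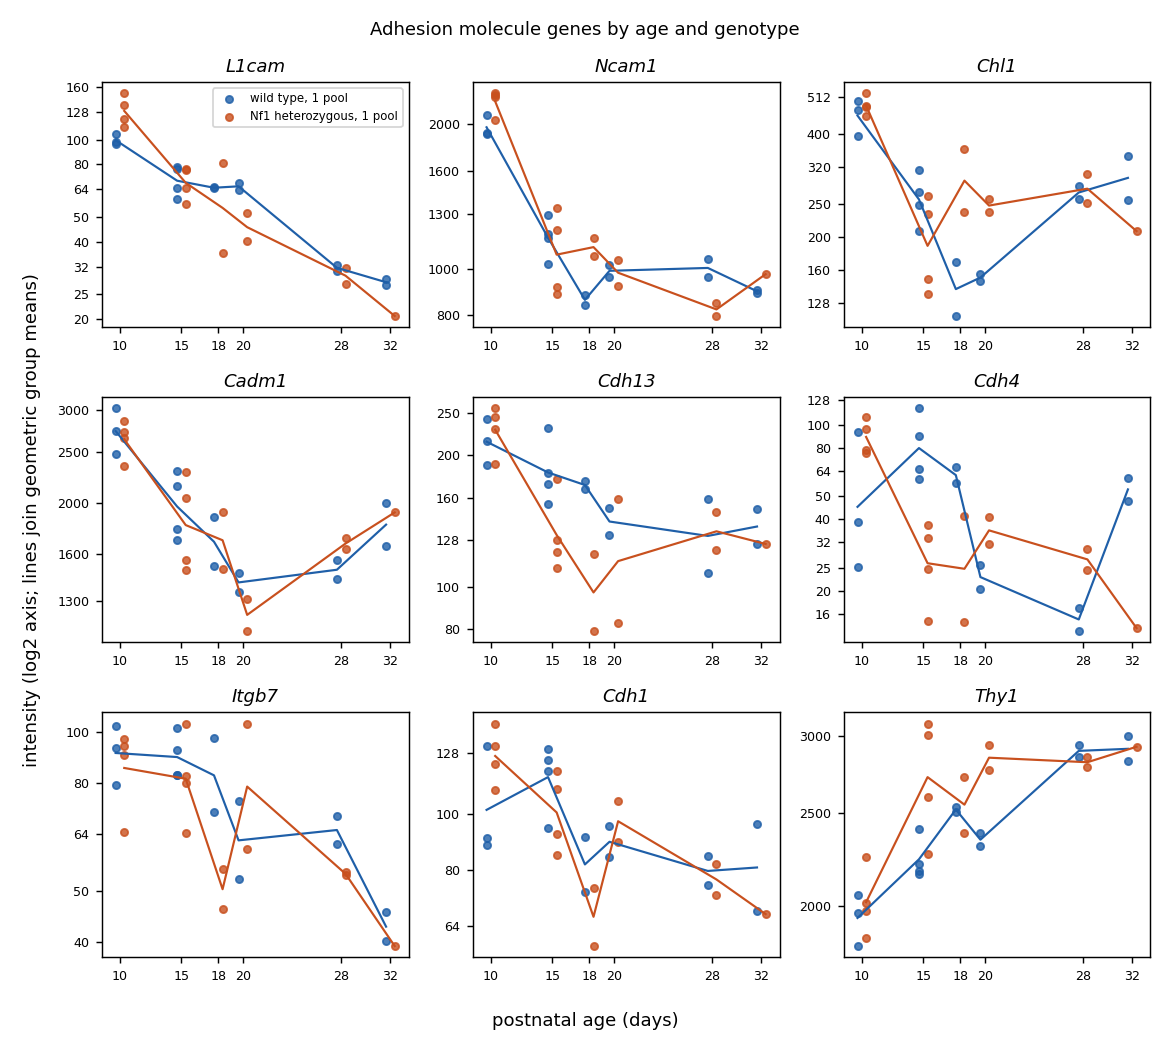
Intensity of the brightest probe set of 9 genes against postnatal age, on a log2 axis; each point is 1 pool (blue wild type, orange Nf1 heterozygous) and lines join geometric group means. L1cam, Ncam1, Chl1, Cadm1 and Cdh13 lie lower in every P28 and P32 pool than in every P10 pool, and Thy1 higher.

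The span was also tested within each genotype. In wild type 9 of the 34 sets were called (1 higher, 8 lower; 38.2% of all sets), and in heterozygotes 11 (1 higher, 10 lower; 36.5% of all). L1cam, both Ncam1 sets, Chl1, 1 set each of Cadm1 and Itgb1, Cdh13, Itgb7 and Thy1 were called in both. For the difference between the spans limma called 0 of 34 (0% of all sets), with 3 at an unadjusted p below 0.05, namely Cdh4 (-1.53), L1cam (-0.65) and Cdh10 (-0.41). Cdh4 was called in heterozygotes (-2.20) and not in wild type (-0.67), and Cdh1 likewise (-0.81 and -0.34). The difference of Cdh4 had a limma adjusted p of 0.645.

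For several members the fall was already there at P15. Between P10 and P15, 12 of the 34 sets were called, 1 higher and 11 lower, against 25.9% of all sets (12.5% higher, 13.4% lower), with a median of -0.21 against -0.02 over all. Chl1 fell by 1.09 (SE 0.13, limma adjusted p = 1.6e-06), to 208 to 313 in wild type and 136 to 263 in heterozygotes, which was 129% of its later span. Ncam1 fell by 0.91 (SE 0.08), 76.9% of its span, and L1cam by 0.73 (SE 0.13), only 35.2%. Cadm1 (-0.51), Cdh13 (-0.52) and the dimmer Itgb1 set (-0.39) also fell, and Thy1 rose by 0.32.

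In the same step Cdh5 (-0.54), Cdh11 (-0.50), Cdh10 (-0.31), Cntn1 (-0.27) and the second Ncam1 set (-0.44) were called lower. The call of Cntn1 (limma adjusted p = 0.0428) was lost under 13 of the alternatives, with values from -0.22 to -0.29, and that of Cdh5 with the Gapdh ratio as a term (-0.46). Cdh4 stood at -0.47 and was not called. Within wild type 4 of the 34 sets were called in this step, all lower (5.76% of all sets), namely Chl1, Ncam1, Cadm1 and the dimmer Itgb1 set. Without the wild-type P10 pool 1b or 2b the count was 1, and without the wild-type P15 pool 1a it was 2. Within heterozygotes 15 were called, 1 higher and 14 lower (21.2% of all sets), L1cam (-0.93) and Cdh4 (-1.77) among them. For the difference between the genotypes limma called 0 (0% of all sets), with 5 members at an unadjusted p below 0.05, and the smallest adjusted p was 0.124, that of Cdh4. Without the wild-type P10 pool 2a 1 was called.

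The later steps brought few calls. Between P15 and P18, 2 sets were called over both genotypes, against 3.84% of all sets. Cdh1 fell by 0.55 (limma adjusted p = 0.0295) and Cdh11, a type II cadherin, rose by 0.57 (limma adjusted p = 0.017). Without the heterozygous P18 pool 1b neither was called (-0.47 and 0.41), and 0 were called without wild-type P18 1c or 1d either. Without heterozygous P18 1a the count was 6, and without the heterozygous P15 pool 1d it was 1.

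This step was also tested in each genotype by itself. Within wild type limma called 0 members (0.121% of all sets), with 5 at an unadjusted p below 0.05. Within heterozygotes it called 10, 6 higher and 4 lower, against 21.3% of all sets. The higher ones were Cdh8 (1.06), Cdh11 (0.73), Itga6 (0.71), Chl1 (0.63), Cdh10 (0.61) and Cntn1 (0.49). The lower ones were the second Itga3 set (-1.51), Itgb7 (-0.69), Cdh1 (-0.60) and a dimmer Itgb1bp1 set (-0.51). The number of these calls, too, changed when single heterozygous pools were left out. It was not set against the number over all sets in the same fits. Without P18 1b 0 were called, without P18 1a 16, and without P15 1d 4. The difference between the genotypes was called for 2 members, Chl1 and Cdh8, against 12% of all sets.

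Between P18 and P20 limma called 0 members (0.0134% of all sets). An unadjusted p below 0.05 was found for 4 of the 34 and for 567 of all 7453. Between P20 and P28 it called 3, against 8.06% of all sets. L1cam fell once more, by 0.84 (SE 0.18, limma adjusted p = 0.00668), from 68.0 and 63.7 in wild type and 40.4 and 51.6 in heterozygotes at P20 to the P28 values given above. Every P28 pool lay below every P20 pool. Cdh10 fell by 0.49 (limma adjusted p = 0.0144), and Cdh2 rose by 0.49 (limma adjusted p = 0.0355).

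In wild type the title numbers changed from 1 to 2 at P20 and back at P28, so number and age cannot be told apart there. Both heterozygous P20 pools had number 1, so at P20 number and genotype cannot be told apart either. Cdh2 lost its call under 10 alternatives and stood at 0.31 without the heterozygous P20 pool 1b. L1cam stood at -0.75 without that pool (limma adjusted p = 0.0551). Only 1 member was called without any 1 of wild-type P20 2a, heterozygous P20 1b, wild-type P28 1b or heterozygous P28 1a. Between P28 and P32 limma called 0 members (0.0134% of all sets), and an unadjusted p below 0.05 was found for 2 of them and for 207 of all sets.

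**Figure D3:**
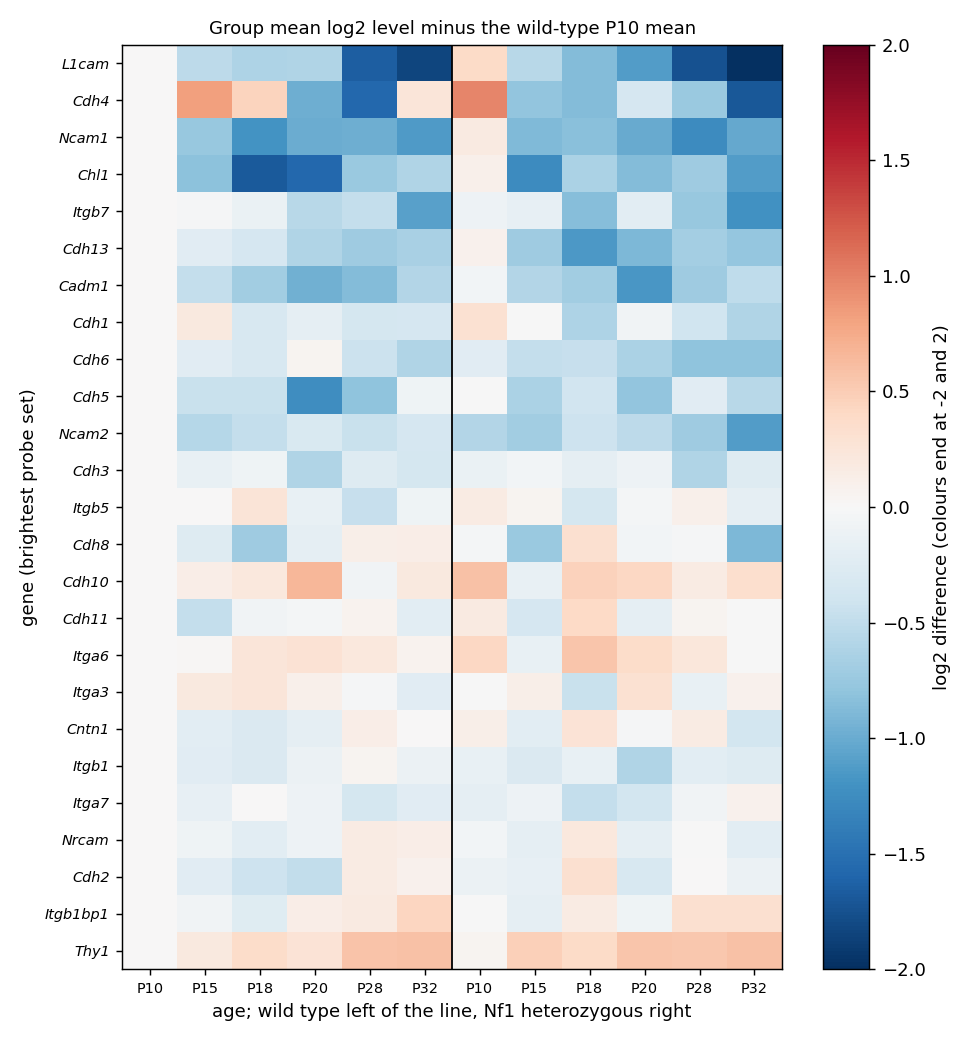
Group mean log2 level of the brightest probe set of each of the 25 genes minus its wild-type P10 mean, by age, with wild type left of the line and Nf1 heterozygotes right of it; blue is lower and red higher. L1cam, Ncam1, Chl1, Cdh13 and Cadm1 are lower at every age from P15 on in both genotypes, and Cdh4 is higher in heterozygotes than in wild type at P10, P20 and P28 and lower at P15, P18 and P32.

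Over all ages no member was called for genotype. Limma called 0 of 34 (0% of all sets). An unadjusted p below 0.05 was found for 6 of them and for 698 of all sets. These 6 were Ncam2 (-0.30), Thy1 (0.12), both Itgb1 sets (-0.15 and -0.10), Cdh13 (-0.27) and Cdh6 (-0.30). The smallest adjusted p was 0.424.

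At single ages members were called at P18 alone. At P10 limma called 0 (0.0403% of all sets), with an unadjusted p below 0.05 for 4 members and 443 of all sets. At P15 the count was 0 (0% of all sets), and 6 members and 440 of all sets had an unadjusted p below 0.05. At P20 it called 0 members (2.27% of all sets), with 3 members and 1216 of all sets below that p. At P28 it called 0 (0.0134% of all sets), with 1 and 385. At P32, where heterozygotes had 1 pool, it called 0 (0.0537% of all sets), with 3 and 509. At P18 it called 6 of 34, 4 higher and 2 lower in heterozygotes, which is 17.6% against 22.8% of all sets (11.0% higher, 11.8% lower).

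Chl1 was 117 and 169 in the wild-type P18 pools and 236 and 360.3 in the heterozygous ones, a difference of 1.05 (SE 0.26, limma adjusted p = 0.00613). Cdh8, a type II cadherin, was 38.0 and 39.3 in wild type and 74.7 and 83.4 in heterozygotes (1.03, limma adjusted p = 0.0337). Both pairs of pools lay apart, but so did those of many sets that were not called. These were Nrcam, Cdh4, Cdh10, Cdh11, both Ncam1 and both Itga3 sets, and the brightest sets of Itga7, Itgb5 and Itgb1bp1. A dimmer Itgb1bp1 set and the dimmer Itgb1 set lay apart as well. With 2 pools on each side, lying apart says little. The share of all sets that lay apart at P18 was not counted. Cdh2 was 501 and 462 in wild type but 593 and 1068 in heterozygotes (0.73, limma adjusted p = 0.0136), so that most of the difference sat in pool 1b. Cntn1 was 1313 and 1452 in wild type against 1768 and 2365 in heterozygotes (0.57, limma adjusted p = 0.0324), with pool 1b again the higher of the pair.

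Lower in heterozygotes at P18 were Cdh13 and Itgb7. Cdh13 was 168 and 174 in wild type and 119 and 79.4 in heterozygotes (-0.81, limma adjusted p = 0.0304). Itgb7 was 70.4 and 97.1 against 55.0 and 46.1 (-0.72, limma adjusted p = 0.046; 0.0532 with the title code as a replicate block). In both genes pool 1b was again the more extreme of the pair.

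Without the heterozygous pool 1b, the one with the raised Gapdh ratio, 0 members were called at P18, and the differences were 0.75 for Chl1, 0.30 for Cdh2, 0.36 for Cntn1, -0.52 for Cdh13 -0.59 for Itgb7 and 0.95 for Cdh8. Without heterozygous pool 1a 14 were called and Cdh2 stood at 1.15. Without wild-type P18 1c or 1d the counts were 2 and 1. Cdh8 kept most of its difference in each case (1.01 and 1.06 without 1c and 1d), though not its call. In a fit that took the Gapdh ratio as a further term 0 were called, Chl1 stood at 0.63, Cdh2 at 0.48 and Cdh13 at 0.02. How the member counts of these fits stood against those of all sets was not examined. Some cell type markers also differed in the P18 pools, where 22.8% of all sets were called. The 7 astrocyte markers summed to 5981 to 6383 in wild type and 6884 to 8997 in heterozygotes (2 called higher), the 8 microglial ones to 2651 to 2656 and 1982 to 2349 (4 called lower), and the 3 of blood to 3635 to 4489 and 1740 to 2952 (2 called lower). The choroid plexus markers summed to 1655 to 2287 in wild type and 1139 to 1583 in heterozygotes (1 called lower, Folr1 at -3.44), and those of neighbouring regions to 698 to 862 and 577 to 632 (1 called lower, Drd2 at -1.59). In the other lists, 2 of 7 endothelial, 2 of 10 principal neuron and 1 of 7 general neuronal markers were called higher. Immature neurons and mural cells had 1 called higher and 1 lower each, and oligodendrocytes 0 of 7. The part of the markers in these differences was not tested.

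For the interaction of genotype and age, an F test over 5 terms, limma called 3 of 34 sets against 6.49% of all. Cdh4 had the smallest p (limma adjusted p = 0.00787). At P10 it was 25.2, 93.4 and 39.1 in wild type and 78.7, 76.5, 108 and 96.4 in heterozygotes. At P15 it was 59.0, 65.3, 117 and 90.2 in wild type and 37.8, 15, 24.6 and 33.5 in heterozygotes. The groups overlapped at P10 and lay apart at P15, with wild type the higher.

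At P15 the difference of Cdh4 was -1.61 (SE 0.35, 95% confidence interval -2.33 to -0.90), the smallest p of any member at that age, and it was not called (limma adjusted p = 0.358). At P32 it was 47.7 and 60 in wild type and 13.9 in the heterozygous pool, while at P20 and P28 the heterozygous pools were the higher. At P20 these were 41.0 and 31.5 against 20.4 and 25.6, and at P28 24.5 and 30.1 against 13.5 and 16.9. The sign thus changed more than once along the ages. This is a dim set whose pools of 1 group differed up to 93.4 against 25.2. The interaction of Cdh4 was called under every alternative that tested the set. Leaving out the lowest 60% removed it from the test.

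Chl1 (limma adjusted p = 0.0231) and Cdh10 (limma adjusted p = 0.0313) were the others. For Chl1 the genotypes lay apart at P18, as given above, and at P20, where wild type was 156 and 149 and heterozygotes 236 and 258. At P20 the title number changed with the genotype, so the 2 cannot be told apart. At P32 the order was the opposite, with 345 and 256 in wild type and 208 in the heterozygous pool. Its call was lost without heterozygous P18 1b (limma adjusted p = 0.0800), without wild-type P18 1c (0.0825), without both heterozygous P18 pools (0.152) and with the Gapdh ratio as a term (0.202). Cdh10, a type II cadherin, was 59.4, 73.2 and 72.9 in wild type and 109.6, 88.5, 108 and 105 in heterozygotes at P10, without overlap (0.59, SE 0.13, not called with a limma adjusted p of 0.107). At P15 the order turned, with 72.2, 85.2, 80.1 and 62.8 against 67.1, 61.3, 62.8 and 54.6. The interaction call of Cdh10 was lost under 13 alternatives.

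**Figure D4:**
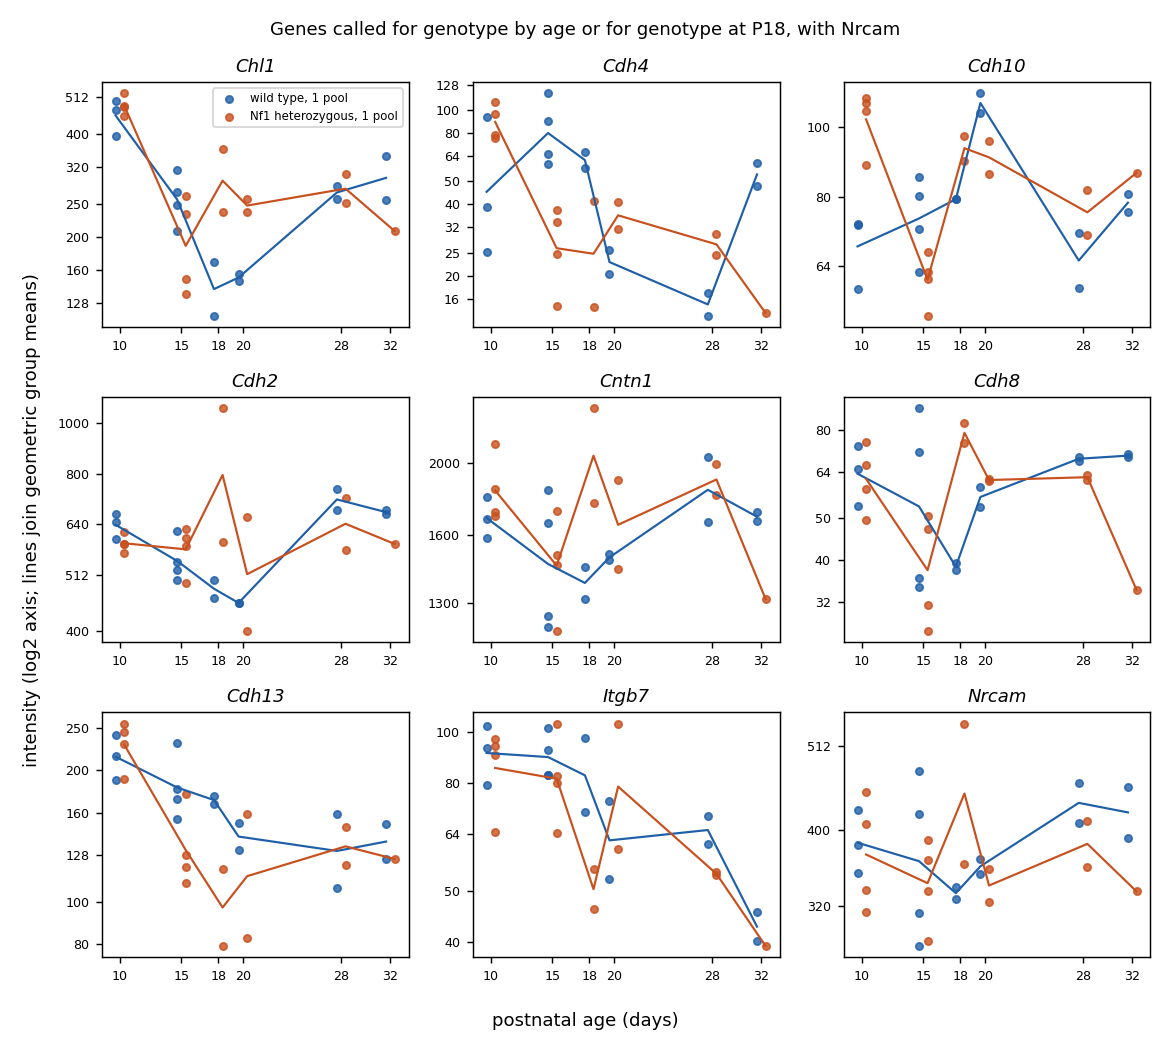
Intensity of the 8 genes called for genotype at P18 or for its interaction with age, and of Nrcam for comparison, against postnatal age on a log2 axis; each point is 1 pool and lines join geometric group means. The heterozygous P18 pools (orange) of Cdh2 and Cdh4 are far apart. The heterozygous pools of Cdh4 lie below the wild-type pools at P15 and above them at P20.

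Partners of the adhesion molecules were taken from lists chosen beside the members, with 1 set per gene and the same test of the span from P10 to P28 and P32. Of all sets tested 24.7% rose and 29.0% fell in that span (median -0.06), and the lists were not tested against these shares. Of 11 catenins and cadherin linkers 3 rose and 4 fell (median -0.15), with Vcl, or vinculin, at 0.59, Iqgap1 at -0.43 and Ctnna1, an alpha catenin, at 0.40. Of 18 integrin adaptors and matrix ligands 2 rose and 9 fell (median -0.27), with Itgb1bp1, itself a member, as 1 of the 2. Ptk2b, a kinase related to focal adhesion kinase, rose by 1.71, and Src and the laminin subunit Lama4 fell by 0.95 and 0.94.

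Of 8 partners and scaffolds of neurexins and neuroligins 1 rose and 6 fell (median -0.26), with the synaptic organiser Cbln1 at -1.06, the scaffold Dlg1 at 0.84 and Dlg4, or PSD-95, at -0.59. Of 10 ankyrin, spectrin and axon partners 0 rose and 5 fell (median -0.32). Tnc, or tenascin-C, stood at -1.67 and the proteoglycans Ncan and Bcan of the perineuronal matrix at -1.22 and -0.91. Of 12 other immunoglobulin-type adhesion molecules 5 rose and 5 fell (median 0.00), with Mag of myelin at 3.58, Jam3 at 1.02 and Bsg at -0.78.

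Of 5 polysialyltransferases and other modifiers 0 rose and 1 fell (median 0.12). The one that fell was St8sia2, which puts polysialic acid on Ncam1 in the young brain, at -1.94 (SE 0.21, limma adjusted p = 4.52e-08).

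Markers of cell types moved over the same span, in which 24.7% of all sets tested rose and 29.0% fell. The 7 markers of immature neurons all fell, and their summed intensity went from 6431 to 6892 in the P10 pools to 2168 to 2980 in those of P28 and P32. The 7 tested markers of oligodendrocytes all rose. Their sum, with the untested Cnp included, went from 672 to 1070.2 at P10 up to 7535 to 9277 later. Of 7 endothelial markers, Cdh5 itself among them, 5 fell (921 to 1074 at P10, 452 to 696 later), and of 9 of mural cells and fibroblasts 5 fell. Of 7 astrocyte markers 5 rose and 1 fell, and of 8 microglial ones 4 rose and 1 fell. Of 7 general neuronal markers 2 rose and 2 fell, of 10 of hippocampal principal neurons 4 rose and 1 fell, of 3 of choroid plexus 1 rose, of 4 of neighbouring regions 1 rose and 2 fell, and of 3 of blood 1 fell. No marker was at the floor of 1 in any pool, but this does not show that each was detected. Cnp (mean 9.9) and Aqp1 (mean 18.4) were too dim to be tested, and Mog went down to 2.46. The part of the markers in the changes of the adhesion molecules was not tested.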

How the data were processed

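Total RNA of 30 hippocampal pools was measured on single-colour arrays. The deposited values are linear intensities, which the authors had brought to 1 level (means of 150.08 to 150.09 without 2% of the values at each end, as read from the values). Their software was not given in the sources used here. Log2 was taken after raising values under 1 to 1. Of 12422 non-control probe sets, the lowest 40% by mean log2 (4969, below an intensity of 30.9) were left out and 7453 tested. In R 4.3.3, limma 3.58.1 (with statmod 1.5.0 for the block) fitted 1 mean per genotype and age to all 30 samples, with an intensity trend. The span sets the average of the groups at P28 and P32 against that at P10, over both genotypes, and a step is the difference of neighbouring ages. For genotype across ages the model held age and genotype as additive terms. P-values were two-sided, adjusted by Benjamini-Hochberg over all sets tested and called below 0.05. Computations were tested on data with known changes.

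Symbols came from the platform annotation, updated through RefSeq. The brightest set stood for a gene, and named genes were those called, by size of change, with up to 3 per partner list. Members and lists were chosen with earlier results of these data known. Nothing in the labels says whether pools shared litters or days. P-values measure the spread between pools, taken as independent. In wild type at P15 Cdh8 went by title number, with 89.9 and 71.4 for number 1 against 34.6 and 36.3 for number 2. The brightest Itga7 set did not (80.6 and 89.9 against 72.9 and 101). How many sets went by number was not counted, and a block of whole title codes does not test it. Alternatives were another floor, quantile normalization, 2 other filters, array weights, no trend, the title code as a block, the title number or the Gapdh ratio as a term, the compared groups only, each library left out and, added after seeing the data, both heterozygous P18 libraries left out. The number of arrays limits precision.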

Additional observations from a re-analysis of the deposited data

Results flagged for a closer look

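Among 75 groups of 4 pools checked, 1 pool stood apart from its group in 4 cases, and about 1 group in 20 does so by chance. Ncam1 was 2042 in the heterozygous P10 pool 2b against 2280.2 to 2317 in the others. Cdh5 was 77.2 in the same pool against 111 to 118. Itga7 was 58.9 in the heterozygous P10 pool 2a against 94.7 to 98.2, and Ncam2 was 73.6 in the wild-type P15 pool 2c against 46.5 to 48.1.

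Genotype effects differed between ages for Cdh4 (limma adjusted p of the interaction = 0.00787), Chl1 (0.0231) and Cdh10 (0.0313). The step from P15 to P18 differed between genotypes for Chl1, with -0.87 in wild type and 0.63 in heterozygotes (difference 1.5, limma adjusted p = 0.00626), and for Cdh8, with -0.46 and 1.06 (difference 1.52, limma adjusted p = 0.0232). These were 2 of 34 member sets, against 12% of all sets, and without the heterozygous P18 pool 1b the count was 0, without 1a it was 9, and without either wild-type P18 pool 1.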

How the results depend on the processing

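The counts of members called in the span (over both genotypes and in each) and in the step from P10 to P15 over both genotypes stayed within 1.5 times under all alternatives run. Of the 15, 9, 11 and 12 sets called there, 12, 8, 11 and 10 kept the call under every alternative that tested the set. The exceptions were Cadm1 (second set), Cdh5 and Cdh6, Cdh13 in wild type, and Cntn1 and Cdh5. The stricter filter on dim sets left out L1cam, Cdh4 and Itgb7, among others, so their calls were not tested under it. Leaving out single libraries gave 13 to 16, 8 to 11, 11 to 13 and 11 to 14 calls.

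For the step P15 to P18 (2 calls), array weights, the Gapdh ratio, the compared groups only and leaving out both heterozygous P18 libraries gave 0, no intensity trend 4, and leaving out 1 library 0 to 6. For the steps within a genotype, chosen after seeing the data, P10 to P15 in wild type (4 calls) went to 2 with no filter or no intensity trend and to 1 to 6 without 1 library; in heterozygotes (15) it went to 9 without the lowest 60% and 11 to 16; and their difference (0) to 1 with the title number or the Gapdh ratio and 0 to 1. P15 to P18 in heterozygotes (10) went to 6 without the lowest 60%, to 0 with array weights, the Gapdh ratio or the compared groups only, and to 0 to 16 without 1 library; in wild type (0) it went to 1 with array weights. Their difference (2) went to 1 without the lowest 60%, to 0 with array weights, the Gapdh ratio or the compared groups only, and to 0 to 9 without 1 library. For P18 to P20 (0 calls) leaving out 1 library gave 0 to 2. For P20 to P28 (3 calls) leaving out the lowest 60% gave 1, array weights 5 and single libraries 1 to 4. For genotype at P15 (0 calls) the Gapdh ratio gave 1. At P18 (6 calls) no filter gave 3, array weights, the Gapdh ratio and the compared groups only 0, and single libraries 0 to 14. At P20 (0 calls) array weights, the Gapdh ratio and leaving out both heterozygous P18 libraries gave 1, and single libraries 0 to 1. At P32 (0 calls) the Gapdh ratio and the compared groups only gave 1. For the interaction (3 calls) leaving out the lowest 60% and the Gapdh ratio gave 1, and single libraries 1 to 7. The cause was not tested, nor whether the member counts moved more than those of all sets under these alternatives. Cdh13 at P18 changed sign with the Gapdh ratio as a covariate (0.0246, limma adjusted p = 0.979).

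With the title code as a replicate block, 90 calls of single sets over all comparisons stayed and 2 were lost, Itgb7 at P18 (-0.70, limma adjusted p = 0.0532) and Itgb1 in the wild-type step from P10 to P15 (-0.36, limma adjusted p = 0.0533). Pools of the same code and age correlated between genotypes at -0.18 to 0.13. These values came from P10, P15 and P28 alone, and the pairs at P28 gave the same value. They are too few to say whether pools of the same code shared litters or days. Without the sole heterozygous P32 library no genotype effect at P32 could be computed, and the heterozygous span rested on P28 alone. Dim sets such as Cdh4, Cdh6 and L1cam depend most on the floor.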
